A study of Mus musculus with 4 samples.

Results

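Gamma-delta T-cell receptor segments and genes of gamma-delta T cells were represented by 5 of the 18193 genes named on the arrays: the variable segments Trgv1 and Trgv4 of the receptor gamma chain, the transcription factor gene Sox13, and the scavenger receptor genes Cd163l1 and 5830411N06Rik. Every probe set whose annotated symbol was one of these names, or included one, was taken, which gave 9 probe sets. The members were chosen by their log2 intensities in this Ly49+ against Ly49- contrast, so their differences are given as a description, with no test. The 4 Affymetrix arrays measured RNA of splenic CD8 T cells from B6 mice, all wild type, in 2 groups of 2 samples. Sorting on CD44, CD122 and Ly49 gave a group positive for all 3 markers (Ly49+, CD8+ Treg in the labels) and a group positive for CD44 and CD122 but lacking Ly49 (Ly49-, conventional memory in the labels). No age, treatment or gate on a T-cell receptor is given. Whether replicates were taken from different mice is not stated either, and the p-values then cover only the variation among these samples, which may be technical.

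A T-cell receptor is built either from an alpha and a beta chain or from a gamma and a delta chain, and each chain gene is assembled by joining separate variable, joining and constant segments. Most CD8 T cells of the spleen carry the alpha-beta receptor, and transcription of the gamma genes is largely held down in that lineage. Sox13 is a transcription factor known for its role in gamma-delta T cells. Cd163l1 and 5830411N06Rik, which RefSeq also lists as Scart1 and Scart2, encode membrane proteins of the scavenger receptor cysteine-rich family that are known from gamma-delta T cells.

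The members fell into separate sets by the direction of their difference. All 5 probe sets of the gamma-chain segments were higher on both Ly49+ arrays than on either Ly49- array, at 1.80 to 2.98 times the Ly49- mean intensity. The 4 probe sets of Sox13, Cd163l1 and 5830411N06Rik were lower on both Ly49+ arrays, with Ly49- means 1.15 to 1.55 times the Ly49+ means. Over all 45037 probe sets, 15.7% lay higher and 29.1% lower in Ly49+ cells with no overlap of the groups, and the limma test called 1.19% in either direction. Nothing is read from the members' counts, since this contrast chose them. In bulk RNA, a different number of cells of a type and a different amount of RNA per cell cannot be told apart.

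Cd163l1 and 5830411N06Rik lie side by side on chromosome 7 in the RefSeq gene list (GRCm38.p6), with 1 gene between them, the olfactory receptor gene Olfr524. Their start-site windows are shown because these neighbours differed between the groups in the same direction. Each window runs from 250 bases before to 50 bases after a start site, as given by RefSeq (GRCm38.p6, plus strand). The Cd163l1 window is chr7:140218017-140218316 and lies inside the span that RefSeq gives the gene, and the 5830411N06Rik window is chr7:140247051-140247350, the first of 3 listed. Capitals mark a match to any of 5 short motifs searched on both strands, which were chosen after the values were known.
Cd163l1: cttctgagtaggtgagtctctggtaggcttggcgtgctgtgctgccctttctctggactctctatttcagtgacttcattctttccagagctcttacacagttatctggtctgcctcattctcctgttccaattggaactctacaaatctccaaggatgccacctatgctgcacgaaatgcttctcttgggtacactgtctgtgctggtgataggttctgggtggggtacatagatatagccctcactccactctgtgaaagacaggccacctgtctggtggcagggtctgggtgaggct
5830411N06Rik: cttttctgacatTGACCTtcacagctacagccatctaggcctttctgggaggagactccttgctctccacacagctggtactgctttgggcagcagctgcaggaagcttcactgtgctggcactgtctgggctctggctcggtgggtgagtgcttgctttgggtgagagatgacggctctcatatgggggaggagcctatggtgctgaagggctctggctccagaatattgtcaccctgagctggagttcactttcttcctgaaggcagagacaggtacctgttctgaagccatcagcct
The 5 motifs were AGGTCA, bound by nuclear receptors, AACAAT, bound by Sox factors, CTTTGA, bound by TCF and LEF factors, TGGGAA, bound by Ikaros family factors such as Helios, which the series title names, and TGTGGT, bound by Runx factors. None of these letters is in the Cd163l1 window. The 5830411N06Rik window holds 1 match, TGACCT at bases 13 to 18, which is AGGTCA read on the minus strand. The other windows of that gene, which start at 140247128 and 140247131, overlap each other and hold 1 further such match. It is the same site in both, at bases 294 to 299 and 291 to 296. AGGTCA on either strand is in 16.3% of the 32851 RefSeq windows of this length. The single Sox13 window, chr1:133424163-133424462 on the minus strand, holds 1 match to TGGGAA, which 25.6% of the windows hold.

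Trgv1 showed the largest ratio among the members. Its probe set, 1427608_a_at, read 1848 and 2009 on the Ly49+ arrays and 586 and 709.7 on the Ly49- arrays (replicates 1 and 2 in that order, here and below). Both Ly49+ values lie well above both Ly49- values, and the groups do not overlap. The means were 1929 ± 114 and 648 ± 87.4 (SD, n = 2 arrays each), a ratio of 2.98. On the scale of log2(intensity + 16), on which all differences below are given, the Ly49+ level was higher by 1.56, and by 1.42 to 1.69 when any 1 array was left out.

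Trgv4 was read by 4 probe sets, 1 of which is annotated to Trgv2 as well. That shared probe set, 1422188_s_at, read 7119.6 and 7716 in Ly49+ cells and 2791 and 3185 in Ly49- cells. The lower Ly49+ value was far above the higher Ly49- value. The means were 7418 ± 422 and 2988 ± 278 (SD, n = 2), a ratio of 2.48 and a log2 difference of 1.31. Since it may detect either segment, its signal cannot be assigned to Trgv4 or Trgv2 alone.

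The 3 probe sets annotated to Trgv4 alone pointed the same way with different sizes. Probe set 1450521_a_at read 2596 and 2773 against 1382 and 1556, with means of 2684 ± 125 and 1469 ± 123 (ratio 1.83, log2 difference 0.86). Probe set 1422189_x_at read 2309 and 2356 against 1215 and 1381, with means of 2332 ± 33.3 and 1298 ± 118 (ratio 1.80, log2 difference 0.84). These probe sets were nearly equal in their differences and in the order of the arrays. The dimmest, 1427802_a_at, read 319 and 270.3 against 94.7 and 145, with means of 295 ± 34.3 and 119.7 ± 35.3, a ratio of 2.46 and a log2 difference of 1.22. Its arrays spread more than those of the other Trgv4 probe sets, and leaving out 1 array gave differences from 0.95 to 1.48. Some gamma-chain variable segments resemble one another, and whether a probe set named for one also reads another was not tested, since the probe sequences were not used here. Without the probe sets whose names end in _x_at or _s_at, which may detect other transcripts, 3 gamma-chain probe sets remained. Their differences are those given above, since leaving out other probe sets does not change them.

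Beyond Trgv1, Trgv4 and, on the shared probe set, Trgv2, the annotation names no gamma segment. It names no probe set for the delta chain or for the gamma constant regions, and none of these was analysed here. In the RefSeq order of the locus, Trgv4 stands in a cluster with Trgv7, Trgv6 and Trgv5 before the joining segment Trgj1 and the constant region Trgc1. Trgv1 stands at the other end, after Trgv2 and before Trgj4 and Trgc4. The files do not say whether a probe set reads rearranged or unrearranged segments.

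**Figure D1:**
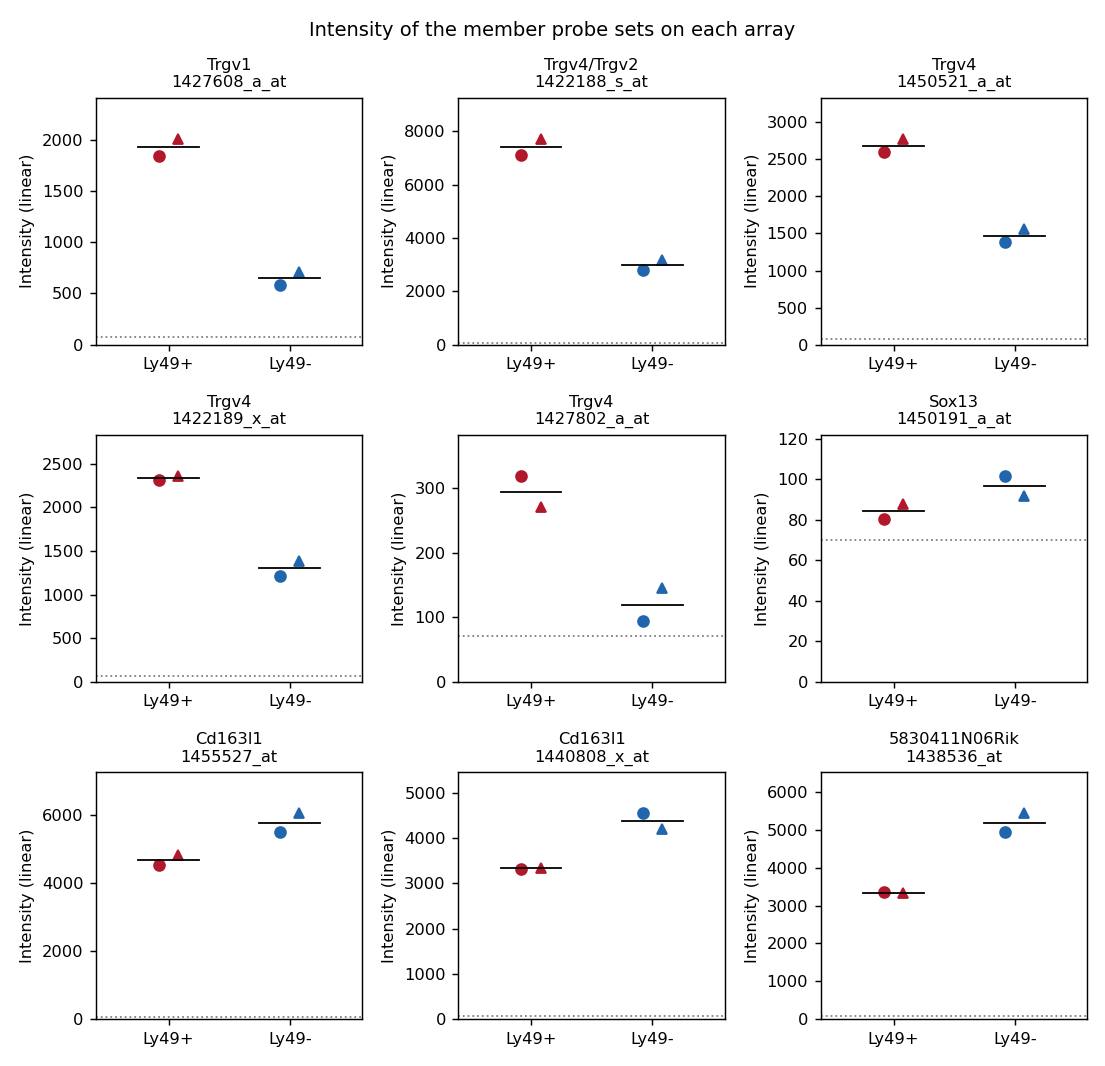
Linear intensity (y axis, from 0) of the 9 member probe sets in Ly49+ (red) and Ly49- (blue) cells. Circles are replicate 1, triangles replicate 2, black lines group means of 2 arrays, and the dotted line is the highest bacterial control value (70.3). The gamma-chain probe sets are higher in Ly49+ cells, while Sox13, Cd163l1 and 5830411N06Rik are lower.

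The scavenger receptor gene 5830411N06Rik had the largest difference among the members that were lower in Ly49+ cells. It read 3356 and 3332 in Ly49+ cells and 4953 and 5441 in Ly49- cells. The Ly49+ arrays were close to each other, and the Ly49- arrays were more spread but lay above both. The means were 3344 ± 17 and 5197 ± 345, so the Ly49- mean was 1.55 times the Ly49+ mean, and the log2 difference was -0.63.

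Cd163l1, its neighbour and family relative, was read by 2 probe sets. Probe set 1455527_at read 4526 and 4813 against 5487 and 6041, with means of 4669.7 ± 203 and 5764 ± 392 and a log2 difference of -0.30. Probe set 1440808_x_at read 3316 and 3352 against 4554 and 4197, with means of 3334 ± 25.4 and 4375 ± 253 and a log2 difference of -0.39. Neither probe set had overlapping groups, and the log2 differences were small beside those of the gamma-chain segments. Leaving out 1 array moved them between -0.37 and -0.23 for the first and between -0.45 and -0.33 for the other.

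Sox13 was dim in both groups. Its probe set, 1450191_a_at, read 80.6 and 87.8 in Ly49+ cells and 102 and 92.0 in Ly49- cells. These values are only a little above the highest value of the 27 bacterial control probe sets, for which the cells have no transcript (70.3), and the groups are close to each other without overlapping. The means were 84.2 ± 5.07 and 96.8 ± 6.77, a log2 difference of -0.17. Among 34 probe sets for genes of tissues other than spleen, such as albumin and insulin, 9 had a mean above the highest bacterial control and 7 had a mean above that of Sox13 (90.5). All 9 member probe sets had means above the bacterial controls in both groups. The brightest of the probe sets for other tissues had a mean of 445, so Sox13 and the dimmest Trgv4 probe set lay within their range.

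**Figure D2:**
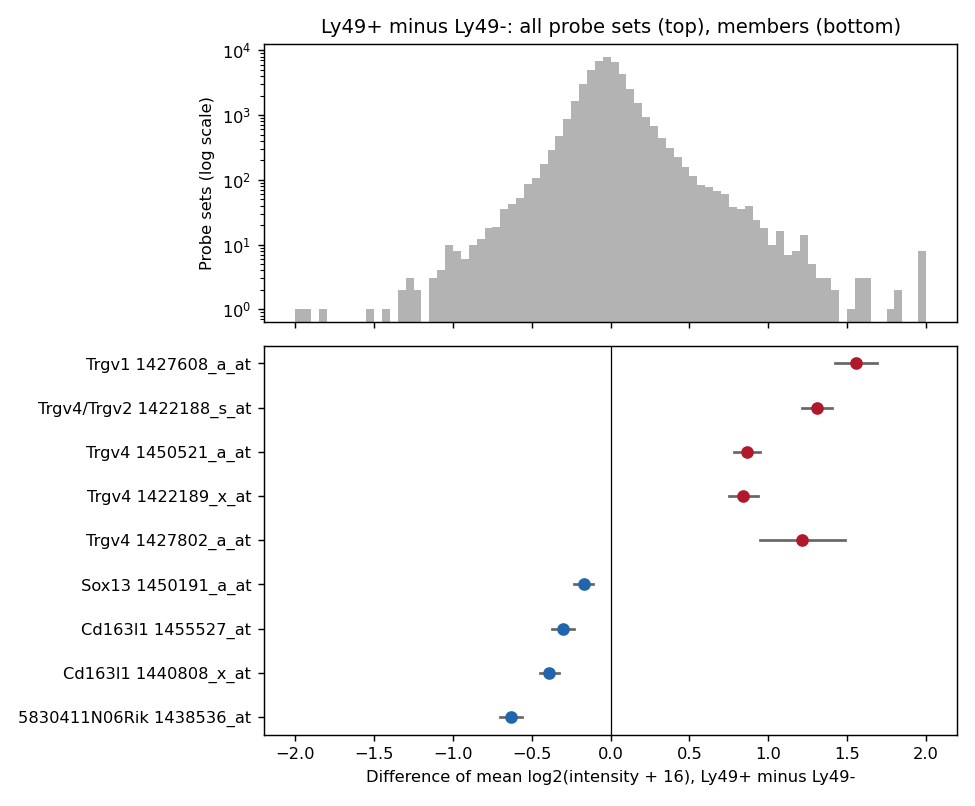
Top, number of probe sets (log scale) by their Ly49+ minus Ly49- difference of mean log2(intensity + 16), for all 45037 probe sets, with values beyond 2 placed in the end bins. Bottom, the same difference for each member probe set (points), with the range over the fits that leave out 1 array (lines). The gamma-chain probe sets lie between 0.84 and 1.56 and the other members between -0.63 and -0.17.

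The members also varied between the replicates of a group. Replicate 2 was above replicate 1 in both groups for 4 of the 5 gamma-chain probe sets, and for 5 of all 9 members. Over all probe sets this held for 25.6%. For Trgv1 the gap between replicates was 0.12 in Ly49+ and 0.27 in Ly49- cells on the log2 scale, against a group difference of 1.56. For Sox13 the gaps were 0.10 and -0.12, nearly as large as its group difference of -0.17.

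The alpha-beta receptor was read on the same arrays. Of 13 probe sets for alpha and beta segments, 0 were called higher or lower (limma adjusted p under 0.05, the threshold for every call), 0 had an unadjusted p under 0.05, and their median log2 difference was 0.00. Their summed intensity was 101295 to 102262 on the Ly49+ arrays and 99277 to 100519 on the Ly49- arrays. Of all 45037 probe sets, 6010 had an unadjusted p under 0.05, the background for such counts here and below. Among 15 probe sets for the CD3 chains and the coreceptors, 0 passed and the median was -0.12. The 5 with an unadjusted p under 0.05 were all lower in Ly49+ cells. They were 2 of Cd8a, a chain of the CD8 coreceptor, at -0.17 and -0.12 (limma adjusted p = 0.15 and 0.22), and 3 of Cd247, the zeta signalling chain, at -0.20, -0.12 and -0.14 (0.24, 0.34 and 0.36). Cd3e, a signalling chain shared by both kinds of receptor, had the highest difference of the list, 0.09, at 19895 ± 255 against 18723 ± 864 (limma adjusted p = 0.40). Cd4, the coreceptor of helper T cells, was read at 49.2 and 59.2 by one probe set and at 140.5 and 144 by the other (Ly49+ and Ly49- means).

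Other genes of gamma-delta T cells and of innate-like T cells were counted in lists, over all probe sets of each gene. In these lists 10 of 133 probe sets were called higher in Ly49+ cells (7.52%), for 6 of 56 genes, and 0 lower, where 0.766% of all 45037 probe sets were called higher and 0.429% lower. The median log2 difference of the lists was 0.05, against -0.03 for all probe sets. Leaving out 1 array left few calls in these lists, 2 when either replicate 1 array (Ly49+ or Ly49-) was dropped and 1 when either replicate 2 array was. Over all probe sets the count of calls fell from 538 to 104 and 65 without replicates 1 and 2 of Ly49+ cells, and to 49 and 31 without those of Ly49- cells.

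In the program of gamma-delta cells that make interleukin-17, 2 of 56 probe sets were called higher, both for Etv5, an ETS transcription factor. Etv5 was 1.98-fold higher by its brightest probe set, at 538 ± 24.0 against 264 ± 9.30 (log2 difference 0.98 ± 0.10 SE, limma adjusted p = 0.012). It missed the threshold whichever array was dropped, with an adjusted p of 0.077 and 0.076 for replicates 1 and 2 of Ly49+ cells and 0.099 and 0.097 for those of Ly49- cells. Maf, a transcription factor of these cells, differed by 0.58 in its probe set with the smallest p (limma adjusted p = 0.052). The chemokine receptor gene Ccr2 differed by 0.49 and by 0.30 in its probe sets with the smallest p (0.072 and 0.071). Rora, a nuclear receptor gene, differed by -0.40 in that with the smallest p (0.13). The probe sets of Maf and Rora did not all point one way, with ranges of -0.13 to 0.58 for Maf and -0.40 to 0.24 for Rora. Il17a, the cytokine that names the program, was read at 27.9 ± 0.0764 against 27.0 ± 1.70, which the bacterial controls reached. Blk, a kinase used by both B cells and these T cells, was read at 218 ± 10.3 against 202 ± 37.3 (adjusted p = 0.79). Il17f and Il23r were not analysed here.

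In the list for interferon-gamma-producing gamma-delta and innate-like T cells, 8 of 25 probe sets were called higher, for 5 of 18 genes. Fcer1g, a signalling adaptor, was 2.32-fold higher at 2500.3 ± 127 against 1067 ± 19.4 (log2 difference 1.22 ± 0.07 SE, limma adjusted p = 0.0019), and passed without each of the arrays. Klrk1, which encodes the activating receptor NKG2D, was 1.69-fold higher at 3432 ± 5.40 against 2026 ± 77.0 (limma adjusted p = 0.0046). Its adjusted p was 0.055 or 0.053 when replicate 2 of the Ly49+ or of the Ly49- cells was dropped. The adaptor Tyrobp rose 1.53-fold (adjusted p = 0.012), and all 4 probe sets of Cd160, an immunoglobulin family receptor of cytotoxic lymphocytes, rose by 0.48 to 0.52. With the arrays dropped in that order, the adjusted p of Tyrobp was 0.056, 0.099, 0.086 and 0.10, and that of the Cd160 probe set with the smallest p was 0.085, 0.12, 0.086 and 0.080. The chemokine gene Ccl5, named after its value was seen, rose by 0.20 (adjusted p = 0.037), and had 0.22, 0.30, 0.11 and 0.15 in that order. Fcer1g and Tyrobp are also in the natural killer cell list.

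Among the regulators of the choice between the gamma-delta and alpha-beta lineages, 0 of 65 probe sets passed the limma test, with 8 at an unadjusted p under 0.05. Of all 45037 probe sets, 6010 had such an unadjusted p. By the probe set with the smallest p, the transcriptional regulator gene Id2 differed by 0.25 (adjusted p = 0.15) and Egr3 by 0.38 (0.28). On the same basis Notch1 differed by -0.31 (0.073) and Bcl11b, which maintains T-cell identity, by -0.23 (0.16). Other probe sets had the opposite sign for Egr3 (-0.10) and Notch1 (0.09), and another of Bcl11b was at -0.02. Of the family of Sox13, 0 of 50 probe sets for 18 other Sox genes passed and 0 had an unadjusted p under 0.05, and 36 of the 50 were not above the highest bacterial control in either group. Sox4, its brightest member in these cells, differed by 0.22 in its brightest probe set (adjusted p = 0.46).

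Other genes with scavenger receptor cysteine-rich domains moved in both directions. Of 25 probe sets, 1 was called higher and 1 lower. Cd163, a haemoglobin scavenger receptor of macrophages and the namesake of Cd163l1, was 2.11-fold higher in Ly49+ cells at 1136 ± 51.4 against 529 ± 12.1 (limma adjusted p = 0.0046). Dropping replicate 2 of Ly49+ cells gave an adjusted p of 0.052, and dropping replicate 1 or 2 of Ly49- cells gave 0.056 or 0.058. The membrane protease gene Tmprss13 was lower, at 51.2 ± 4.77 in Ly49+ cells, within the bacterial controls, against 179 ± 36.8 (adjusted p = 0.010). Dropping replicate 1 or 2 of Ly49+ cells gave 0.058 or 0.060, and dropping replicate 1 of Ly49- cells gave 0.062. Cd5 and Cd6, the lymphocyte members of the family, were read at 8295 ± 72.2 against 8156 ± 260.0 and 8628 ± 49.6 against 8958 ± 224 (adjusted p = 0.85 and 0.62).

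**Figure D3:**
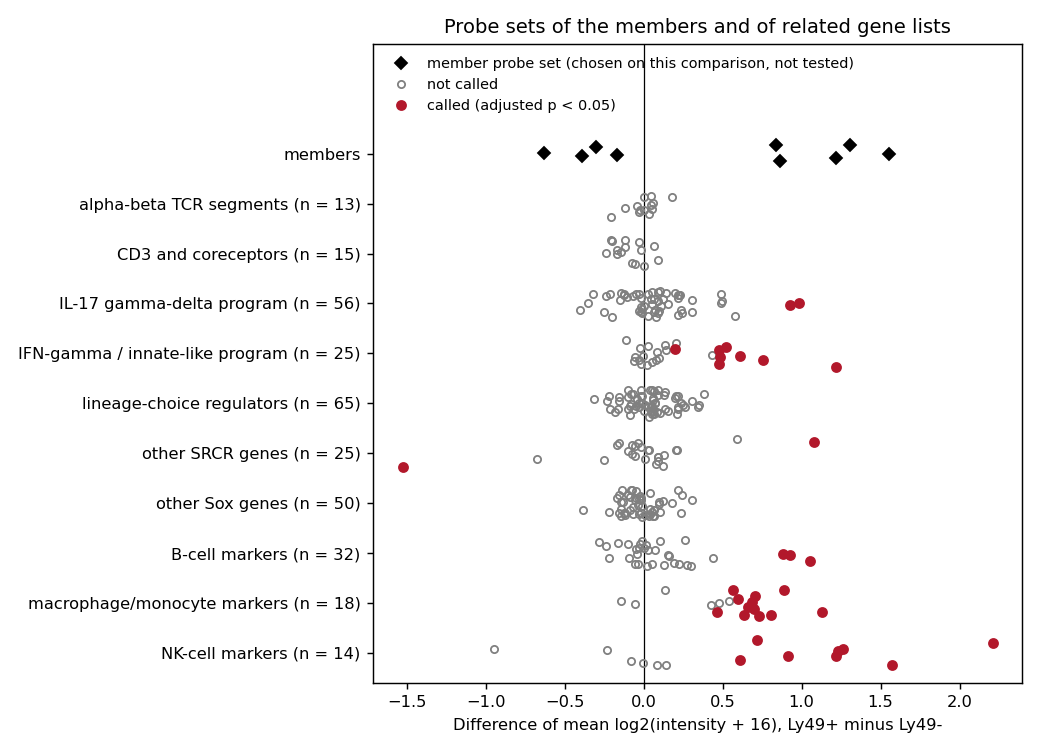
Ly49+ minus Ly49- difference of mean log2(intensity + 16) for each probe set (one point each, spread vertically at random within a row) of the members and of related lists. Filled red points passed the limma test and open points did not. The alpha-beta row has a median of 0.00 and the CD3 and coreceptor row one of -0.12, while 12 of 18 macrophage and 8 of 14 natural killer cell probe sets are called higher.

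Most probe sets in the lists of macrophage and natural killer cell markers were called higher in Ly49+ cells, the direction of the gamma-chain segments. Of 18 probe sets for macrophages and monocytes, 12 were called higher in Ly49+ cells and 0 lower, with a median of 0.62. Their summed intensity was 25276 to 28333 on the Ly49+ arrays and 17024 to 17122 on the Ly49- arrays, and 1 of the 18, for Itgam, was not above the highest bacterial control. Lyz2, the lysozyme of macrophages, was read at 1090.1 ± 55.5 against 489 ± 17.5. The count of 12 was 4 or 1 when replicate 1 or 2 of Ly49+ cells was dropped and 0 when either Ly49- array was. Ncr1, the defining receptor gene of natural killer cells, was read at 39.8 and 39.9, within the bacterial controls. The 14 probe sets for these cells had sums of 42025 to 42807 against 29582 to 32040. Their log2 differences went both ways, from -0.95 to 2.21. Of them 0 were called lower and 8 higher. That count was 5 or 4 when replicate 1 or 2 of Ly49+ cells was dropped and 3 when either Ly49- array was. Of 32 B-cell probe sets, 3 were called higher, for Cd22 and Ms4a1, and 1 without any 1 of the arrays, with sums of 41012 to 43956 against 40652 to 42738. Of 14 dendritic-cell probe sets 1 was called higher, for Xcr1, and 0 when any 1 array was dropped (adjusted p 0.074 to 0.15). In the B-cell list 0 were called lower. A probe set of Cd79b lay lower in Ly49+ cells, at 2035 ± 20.6 against 2475 ± 18.7 (log2 difference -0.28). The limma test called 0 of 11 for CD4 and regulatory T cells and 0 of 9 for red cells and platelets, each with 1 at an unadjusted p under 0.05. The part of these markers in the members' differences was not tested.

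Genes around the members were looked up by their position, after the members' values were known, and are described without a test. On each side the 4 nearest protein-coding genes were taken whose brightest probe set had a group mean above the highest bacterial control. Nearer genes with dimmer probe sets were passed over. The genes taken around the gamma locus had log2 differences from -0.16 to 0.59, with a median of -0.04. Stard3nl, next to the constant end of the locus, differed by 0.19, and the highest value was that of Aoah, an enzyme that inactivates bacterial lipopolysaccharide, read at 105 against 65.0, the latter within the bacterial controls. All 5 gamma-chain probe sets lay above this range. The members were chosen on this contrast and the neighbours were not, so nothing is read from such gaps. Around Cd163l1 and 5830411N06Rik the 8 neighbours ranged from -0.29 to 0.05, with a median of -0.09, and the members lay at -0.30, -0.39 and -0.63, the first of them next to the lowest neighbour, Fuom. Around Sox13 the range was -0.34 to 0.42, which included Sox13.

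**Figure D4:**
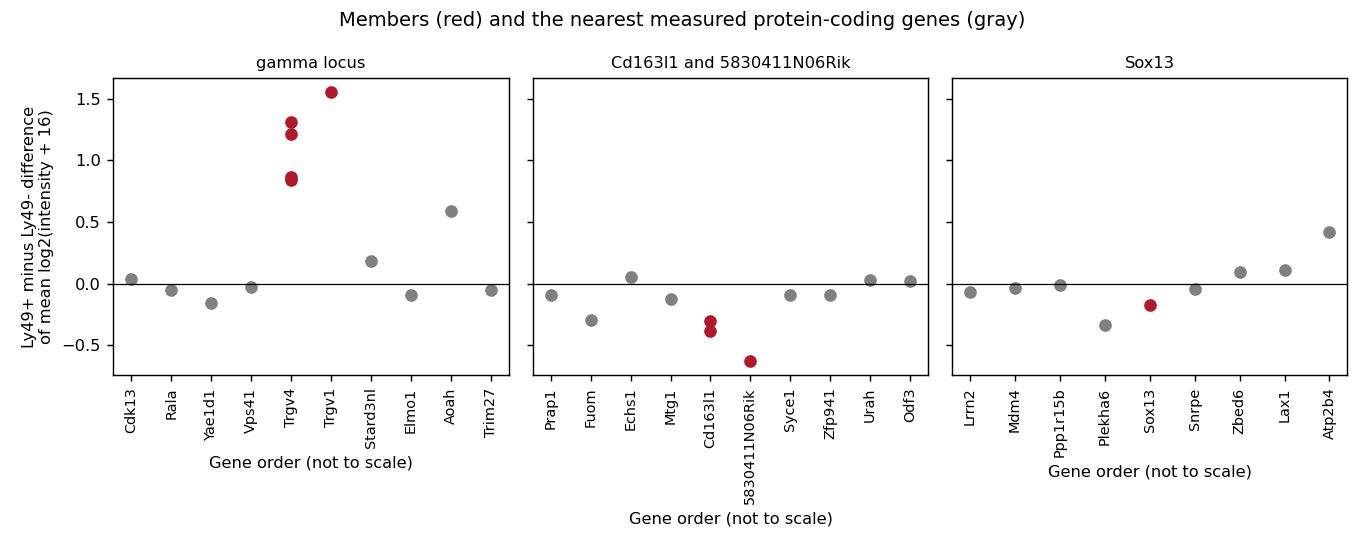
Ly49+ minus Ly49- difference of mean log2(intensity + 16) for the members (red, one point per probe set) and neighbouring genes (gray, brightest probe set), in chromosome order and not to scale. The neighbours are the 4 nearest protein-coding genes on each side with a group mean above the highest bacterial control. The gamma segments lie between 0.84 and 1.56, above their neighbours, and the scavenger receptor pair lies between -0.63 and -0.30, where its lowest neighbour is at -0.29. The members, unlike the neighbours, were chosen on this contrast.

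The genes most like each member over the 4 arrays were found as those with the smallest distance between their centred log2 values, among 23989 probe sets. For Trgv1 these were Styk1, a receptor-like kinase (distance 0.14), Spic, a transcription factor of red pulp macrophages (0.23), and Klrc2, a natural killer receptor (0.23). For the probe set shared by Trgv4 and Trgv2 they were Cd244a (0.063), Mpzl1 (0.078) and Grk3 (0.080). For 5830411N06Rik they were Dlg5, Rad51ap1 and Chst2 (0.039 to 0.052), for Cd163l1 Cep78, Shld2 and Med8 (0.0070 to 0.013), and for Sox13 Cbx1, Fzd9 and Cavin1 (0.011 to 0.016). The distances rest on 4 arrays alone. They include the Ly49+ against Ly49- difference on which the members were chosen, so the likeness is not independent of that choice. That difference was 1.56 for Trgv1 and 1.57 for Styk1, and -0.30 for Cd163l1 and -0.31 for Cep78.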

How the data were processed

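Sorted CD8 T cells of 4 samples were profiled on Affymetrix arrays, per the labels. The authors deposited linear intensities per probe set, from 8.32 to 43959, with array medians between 188 and 190.4, and the labels do not state their normalization. Pairwise correlations of the arrays were 0.996 to 0.998.

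Gene names came from the 2016 platform annotation (34945 with 1 gene symbol, 932 with several, 9160 not listed), and all 5 members matched RefSeq by gene ID. The 45037 probe sets other than controls were tested one by one as log2(intensity + 16) with limma 3.58.1 in R 4.3.3 (lmFit, eBayes with a trend, a group term and no covariate, with 2 residual degrees of freedom and 5.05 from the prior) and Benjamini-Hochberg adjustment at 0.05. This fold understates the change of dim genes. The median difference of all probe sets was -0.03, and -0.01 after quantile normalization. The script was tested on simulated data with 200 changed probe sets. The number of arrays limits the precision.

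The members, lists, motifs and tests were chosen with earlier results of these data known. Named are all member probe sets, up to 4 genes with the smallest p of each list that is described, and the 3 probe sets most like each member. In the cell-type marker lists some of the 4 genes are not named. List members named outside this rule were chosen after their values were seen. Among them are Il17a, Blk, Ccl5, Cd4 (in the CD3 and coreceptor list), Ncr1, Ifng and Egr1. Alternatives were quantile normalization, pseudocounts of 1 and 64, brighter probe sets alone, no _x_at or _s_at probe sets, no trend, a replicate block and omission of each array in turn, which lends the remaining array of that group the spread of the other group.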

Additional observations from a re-analysis of the deposited data

How the results depend on the processing

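The direction of all member probe sets was the same under each of the 11 alternatives that kept them. Only quantile normalization could have changed a direction. The other alternatives leave the difference as it is, or cannot reverse it where the groups do not overlap, as in all members. The count of members higher in Ly49+ cells, 5, was 3 without _x_at and _s_at probe sets, because 2 of the 5 were left out. It stayed at 5 when 1 array was left out, which was fixed for the same reason. The count of called probe sets, 538, was 233 without a trend of the spread, and 31 to 104 when 1 array was left out. The count in the gamma-delta and innate-like lists, 10, was 4 without a trend and 1 to 2 when 1 array was left out, where fewer samples were fitted. With the replicate number as a block, 1415 probe sets were called, 20 of them in those lists. The labels share only a number between the groups and do not say whether the samples are paired. Over all probe sets, the deviations of replicate 1 from its group mean correlated at 0.24 between the groups. Whether samples with the same number belong together was not tested. The cause of the changes without a trend and with the block was not tested. Without a trend, the macrophage list had 1 call in place of 12, the B-cell list 1 in place of 3 and the interferon-gamma list 2 in place of 8. The block gave 6 calls in the interleukin-17 list in place of 2, 4 in the lineage list in place of 0 and 2 higher scavenger receptor probe sets in place of 1. The interleukin-17 list had 1 call without _x_at and _s_at probe sets and 0 when any 1 array was left out. The Maf probe set with the smallest p passed after quantile normalization (adjusted p = 0.034) and among probe sets above the bacterial controls (0.048), as it did with a pseudocount of 1 (0.0498) and with the block (0.010). A further Maf probe set (0.043) and 2 of Ccr2 (0.020 and 0.026) also passed with the block. Ccl5 missed the threshold without a trend (0.30). Calls among other gamma-delta receptor segments could not be counted, since no such probe set was named outside the members. Signal over background limits the reading of Sox13, whose values stand close to the bacterial controls.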

Other observations

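Some genes of the lists varied by replicate number more than by group. Ifng, which encodes interferon-gamma, was read at 8418 and 7506 on the replicate 1 arrays of Ly49+ and Ly49- cells and at 3245 and 3924 on the replicate 2 arrays. Egr1, an immediate-early transcription factor gene, was read at 15121 and 14129 on the replicate 1 arrays and at 7109 and 7003 on the replicate 2 arrays. The gamma-chain segments had the opposite order, with replicate 2 above replicate 1 in both groups for 4 of 5 probe sets, by 0.03 to 0.27 on the log2 scale. These genes were chosen after their values were seen.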
